A study of Paeonia lactiflora with 8 samples.

Results

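Terpene synthases of the herbaceous peony Paeonia lactiflora were followed across 4 organs through 8 assembled gene IDs: comp15294_c0, comp23214_c0, comp23266_c0, comp21880_c0, comp16860_c0, comp21713_c1, comp19097_c0 and comp28580_c0. They are 8 of 30177 IDs in the expression table, and they were named one by one because earlier readings of these same values showed which organ each copy was highest in. Their organ pattern is therefore a description, given here without a test. Each of the 8 entered the count test over 27939 IDs. Messenger RNA was sequenced from root, leaf and flower of the blossom period and from fruit of the young fruit period, and each organ has 2 libraries labelled as biological replicates. The organs were chosen because they differ in paeoniflorin, and all come from plants of 1 species with no treatment or genotype named in the labels. Fruit differs from the other 3 organs in stage as well as in organ, and the effects of stage and organ cannot be told apart in any comparison with fruit.

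Terpene synthases turn linear prenyl diphosphates into the carbon skeletons of terpenes. Monoterpene synthases usually work in plastids on geranyl diphosphate, made from the methylerythritol phosphate (MEP) pathway, and sesquiterpene synthases usually work in the cytosol on farnesyl diphosphate. Plants carry them as a large family in which closely related copies can make different products and are often used in different organs, as flower scent, leaf defence or root metabolites. Paeoniflorin, the glycoside for which peony root is used in medicine, has a monoterpene skeleton of the pinane type. None of the 8 IDs is annotated as a pinene synthase.

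The annotation in the table names the family firmly and the product loosely. The description of 6 of the 8 members is 1,8-cineole synthase, which forms a monoterpene, and 5 carry the grapevine locus VIT_19s0014g04930 as their symbol. The same 5 carry Gene Ontology terms for the cytoplasm and for germacrene-D synthase, which makes a sesquiterpene. In 3 of them, comp21880_c0, comp23214_c0 and comp23266_c0, the cineole description and the germacrene term stand on one ID. Terms for (R)-limonene synthase, another monoterpene enzyme, stand on comp15294_c0, and comp19097_c0 has the general terms lyase activity, cytosol and magnesium ion binding. The symbol of comp21713_c1 is TPS11. Among all IDs, 14 have a symbol of TPS followed by a digit, and 12 of them are trehalose enzymes, but comp21713_c1 and comp13236_c0 (TPS12) are described as 1,8-cineole synthase and belong to the terpene family. Products are therefore given below as annotation, not as measured chemistry.

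The assembled lengths run from 763 bases for comp16860_c0 to 2413 bases for comp21713_c1. Of the members, 4 have 1 assembled isoform (comp15294_c0, comp16860_c0, comp19097_c0 and comp28580_c0), while comp21713_c1 has 14, comp23266_c0 has 7, comp21880_c0 has 4 and comp23214_c0 has 3. Only comp16860_c0 is shorter than 800 bases. Copies of this family resemble each other, so the authors' counting could split reads between them, and IDs that are fragments of 1 gene cannot be told apart from separate genes with the values alone. The libraries are not stated to keep strand, so antisense reads would be counted with the gene.

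The libraries held 30399492 to 49421130 counts each. The leaf, flower and root labels went with the summed level of their markers, the fruit label only in replicate 2. The 40 nuclear photosynthesis IDs summed to 155907 to 194112 TPM (an abundance scaled for transcript length and library size) in leaf. They summed to 93.8 to 448 TPM in root, 2096 to 2522 TPM in flower and 4731 to 17638 TPM in fruit. The petal and stamen genes GLO and DEFA (3 IDs) summed to 905 to 1017 TPM in flower and to at most 10.0 TPM in the other organs. Fruit replicates differed in 7 seed storage and oleosin IDs, which summed to 86.3 TPM in fruit replicate 1 and 6137 TPM in fruit replicate 2. The same IDs summed to 96.9 to 101 TPM in flower, above fruit replicate 1, and to 49.8 to 60.1 TPM in root and 42.9 to 44.6 TPM in leaf. Root markers (AGL12, CASP and nicotianamine synthase, 4 IDs) summed to 22.8 to 87.4 TPM in root, against 6.43 to 13.3 TPM elsewhere. The mean was highest in the labelled organ for 33 of the 40 leaf, 3 of 3 flower, 5 of 7 fruit and 3 of 4 root IDs. IDs named TAR1-A took 41.4% of the counts and 7.23% of the TPM in flower replicate 2.

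Each organ except fruit was the highest organ of at least 2 copies. By mean TPM the highest organ was root for 3 members, leaf for 2, flower for 3 and fruit for 0. For 7 of the 8, both libraries of the highest organ lay above every library of the other 3 organs. The same was so for 43.5% of all tested IDs, and since the members were chosen for their pattern nothing is read from the count. The exception was comp15294_c0. In bulk tissue, fewer cells of a type and less RNA per cell cannot be told apart, so a level is that of the whole organ.

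**Figure D1:**
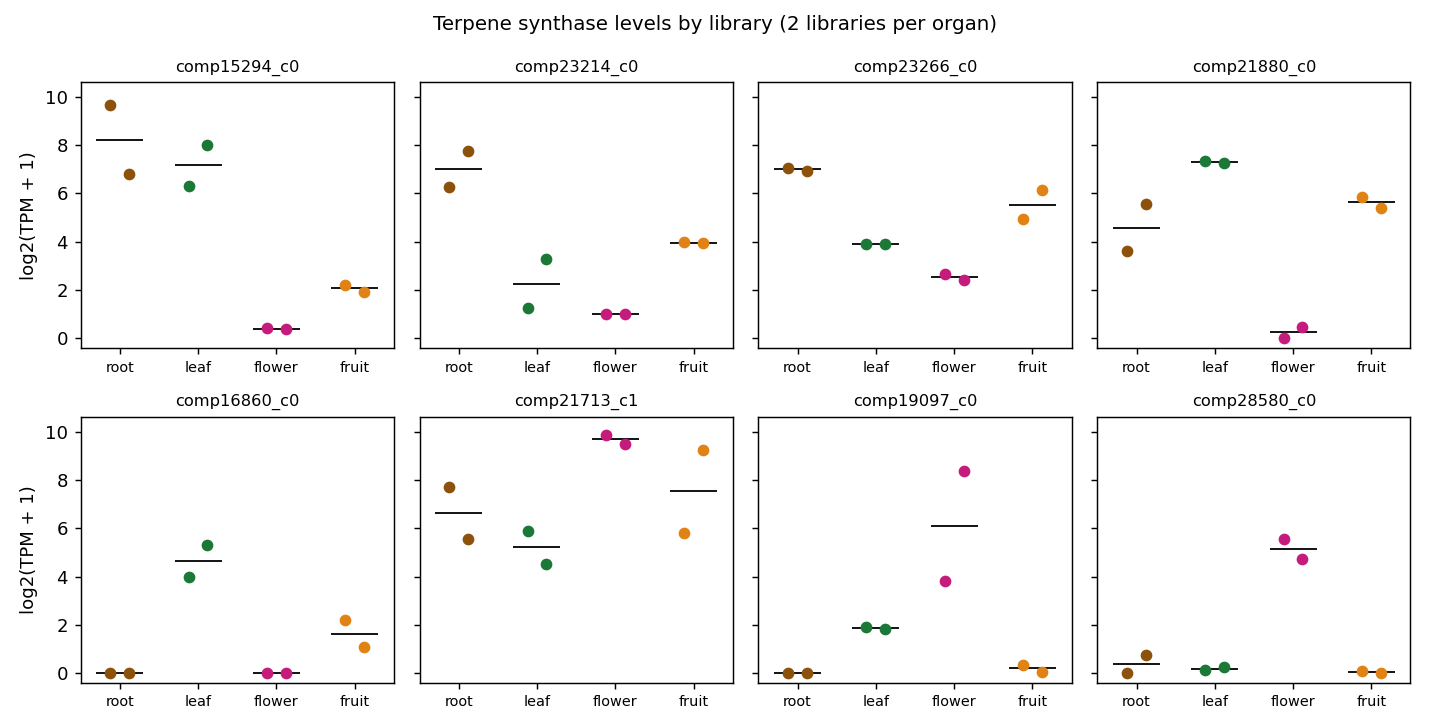
Level of each of the 8 terpene synthase IDs in every library, as log2(TPM + 1), with root, leaf, flower and fruit from left to right; points are the 2 libraries of an organ and the line is their mean on that scale. The highest organ is root for 3 IDs, leaf for 2 and flower for 3, and comp15294_c0 is the one whose highest organ overlaps another.

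By mean, the most abundant root copy was comp15294_c0, the ID with a limonene synthase term. It had 801 and 112 TPM in root, 77.5 and 259.8 TPM in leaf, 3.66 and 2.77 TPM in fruit, and 0.34 and 0.32 TPM in flower. Root replicate 1 stood far above every other library, whereas root replicate 2 lay between the leaf libraries, so root and leaf overlap. In root replicate 2 comp23214_c0 (218 TPM) and comp23266_c0 (121 TPM) were both above it. The mean in root was 456 ± 487 TPM (SD, n = 2) and in leaf 169 ± 129 TPM (SD, n = 2). Root held 72.6% of the summed organ means, and without root replicate 1 leaf became the highest organ and the root share was 39.4%. All 4 root and leaf libraries lay above all fruit and flower libraries.

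The other root copies were more even. The ID comp23214_c0 had 76.9 and 218 TPM in root, 14.9 and 14.3 TPM in fruit, 1.40 and 8.74 TPM in leaf, and 1.01 TPM in each flower library. Its organs do not overlap, and root held 87.7% of the summed organ means. The ID comp23266_c0 had 133 and 121 TPM in root, 30.1 and 68.9 TPM in fruit, 13.9 and 14.2 TPM in leaf, and 5.43 and 4.38 TPM in flower. It was detected in all 8 libraries, its organs do not overlap either, and its root mean of 127 ± 8.41 TPM (SD, n = 2) was 2.56 times its fruit mean of 49.5 ± 27.4 TPM (SD, n = 2). In both copies the order of organs was root, fruit, leaf and flower, but the root replicates differed in opposite ways: comp15294_c0 was higher in root replicate 1, comp23214_c0 was higher in root replicate 2, and comp23266_c0 was nearly level between them.

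Leaf was the highest organ of comp21880_c0 and comp16860_c0. The ID comp21880_c0 had 163 and 154 TPM in leaf, 56.9 and 41.2 TPM in fruit, 11.1 and 46.0 TPM in root, and 0.02 and 0.39 TPM in flower. Leaf stood above all other libraries with 67.0% of the summed organ means, fruit and root overlapped in TPM, and flower was nearly empty. In counts scaled to a common library total (CPM) fruit and root did not overlap. Fruit had 116 and 80.1 CPM, against 12.2 and 48.7 CPM in root. The ID comp16860_c0 had no count in either root library, 14.6 and 38.5 TPM in leaf, no count in either flower library, and 3.62 and 1.11 TPM in fruit. A bound was set from 3 counts over the 2 libraries, on library totals without TMM scaling. By it, the level of comp16860_c0 was at least 511-fold lower in root than in leaf and at least 420-fold higher in leaf than in flower. TMM scaling would lower its bound against flower. Leaf held 91.8% of its summed organ means, and the leaf libraries differed by more than did those of comp21880_c0.

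The flower copies differed most among themselves. The ID comp28580_c0 had 46.6 and 25.2 TPM in flower, 0.01 and 0.69 TPM in root, 0.09 and 0.18 TPM in leaf, and 0.07 and 0 TPM in fruit. Flower held 98.6% of its summed organ means, and no other library reached 1 TPM. The ID comp19097_c0 had 13.0 and 334 TPM in flower, 2.71 and 2.55 TPM in leaf, 0.28 and 0.04 TPM in fruit, and 0.02 TPM in each root library. Its flower libraries lie far apart, with a mean of 174 ± 227 TPM (SD, n = 2), although the lower one is still above every library of the other organs. Flower held 98.4% of the summed organ means with both libraries and 82.2% without flower replicate 2. The high value stands in the library in which TAR1-A takes 41.4% of the counts, and the part of that library's make-up in the result was not tested.

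In TPM the most abundant member over the 8 libraries was comp21713_c1 (TPS11); in counts it was comp15294_c0, with 134892 against 81636 for comp21713_c1. It had 928 and 726 TPM in flower, 54.9 and 602 TPM in fruit, 209.8 and 45.5 TPM in root, and 58.0 and 22.2 TPM in leaf. Flower stood above every other library at 827 ± 143 TPM (SD, n = 2), while fruit, root and leaf overlapped. The fruit value was high only in replicate 2, the fruit library with 6137 TPM of seed storage and oleosin IDs, and the part of its seed content in the result was not tested. Without fruit replicate 2 flower held 78.8% of the summed organ means, without fruit replicate 1 it held 51.8%, and with both it held 62.5%.

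The TPM and the counts of comp21713_c1 differ on how far its replicates lie apart. In counts it had 60736 and 5540 in flower, 1884 and 6278 in fruit, 2230 and 543 in root, and 4171 and 254 in leaf. Scaled to a common library total (CPM) these are 1528 and 182 in flower, 38.1 and 157 in fruit, 50.2 and 13.3 in root, and 84.8 and 5.94 in leaf. Flower replicate 1 was thus 8.38 times flower replicate 2 in CPM and 1.28 times in TPM. The effective length implied by the ratio of count to TPM, set on the scale of single-isoform IDs, was 1113 and 267 bases in flower, 536 and 192 bases in fruit, 192 and 240 bases in root, and 1167 and 217 bases in leaf. For comp15294_c0, which has 1 isoform, the same measure stayed between 1961 and 1965 bases in the 6 libraries with enough counts. The measure of comp21713_c1 thus ran from 192 to 1167 bases between libraries, and its level depends on whether length enters. The other members with several isoforms varied too, from 432 to 1685 bases in comp23214_c0, 874 to 1716 in comp21880_c0 and 978 to 1446 in comp23266_c0. Whether the mixture of the 14 isoforms of comp21713_c1, or of the isoforms of the others, differed between libraries was not tested. In both units flower is the highest organ of comp21713_c1, with a share of 87.4% in CPM scaled by TMM factors and 62.5% in TPM, and it passed none of the 6 organ comparisons in counts.

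**Figure D2:**
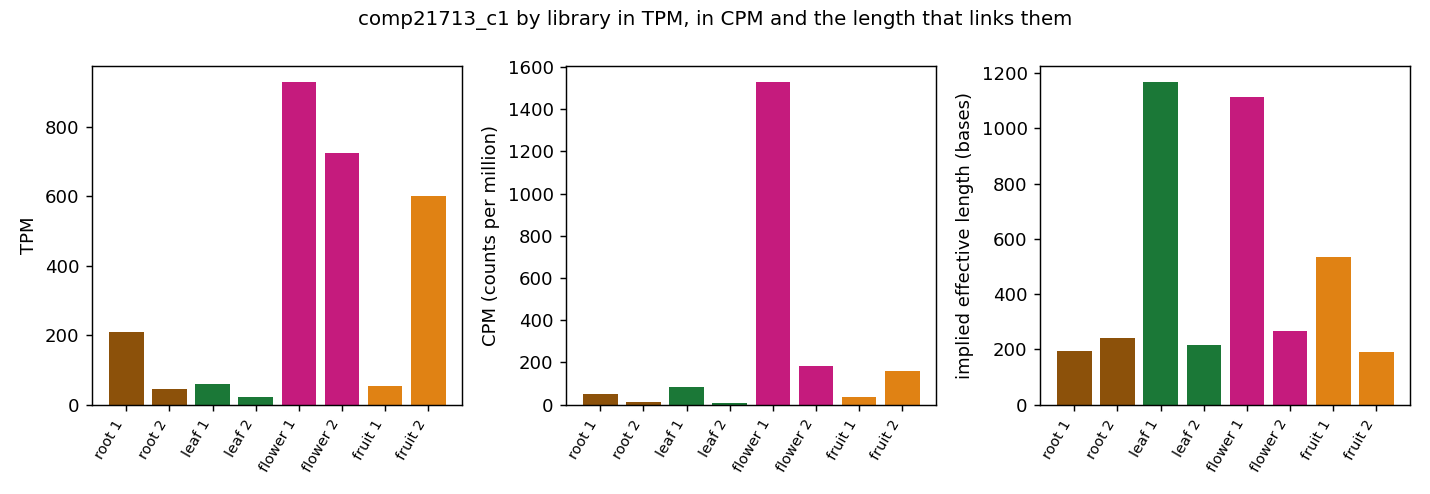
Level of comp21713_c1 in each library as bars, in TPM and in CPM, beside the effective length in bases implied by the deposited counts and TPM. Flower replicates are close in TPM (928 and 726) and apart in CPM (1528 and 182), and the implied length runs from 192 to 1167 bases.

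The 25 IDs that the table's description or symbol places among terpene synthases form the terpene synthase pool, and most of its TPM came from the members in each library. The pool measured 1262 and 574 TPM in root, 403 and 725 TPM in leaf, 1022 and 1166 TPM in flower, and 199 and 753 TPM in fruit. Of it, the members made up 97.6% and 94.6% in root. The shares in leaf were 82.0% and 69.0%, those in flower 97.3% and 93.7%, and those in fruit 82.5% and 97.0%. In TPM both flower libraries lay above every leaf and fruit library, at 1094 ± 101 TPM in flower, 564 ± 228 TPM in leaf and 476 ± 392 TPM in fruit (SD, n = 2 each). Root overlapped with flower, leaf and fruit. In CPM on unscaled totals the pool was 2380 and 996 in root, 761 and 1337 in leaf and 1712 and 864 in flower. On that scale flower overlapped leaf, and TAR1-A took 41.4% of the counts of flower replicate 2. With CPM divided by the TMM factors (0.763 and 0.581 in flower, 0.920 and 1.07 in leaf), both flower libraries lay above both leaf libraries. Both fruit libraries, with 270.1 and 393, lay below all others in CPM.

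The copies that filled the pool differed between organs and, in several organs, between replicates. In root, comp15294_c0 made up 63.5% and 19.5%, comp23214_c0 6.09% and 38.0%, and comp23266_c0 10.5% and 21.0%. The root replicates therefore had a different leading copy. In leaf, comp21880_c0 made up 40.3% and 21.2% and comp15294_c0 made up 19.2% and 35.8%, so the leading copy also differed between leaf replicates. In flower, comp21713_c1 made up 90.8% and 62.3% of the TPM and comp19097_c0 1.27% and 28.7%. In CPM the leading copy of flower replicate 2 was comp19097_c0 with 527, above comp21713_c1 with 182, while comp21713_c1 led flower replicate 1 with 1528. In the other 6 libraries the leading copy was the same in both units. In fruit, comp21713_c1 made up 27.5% and 80.0%, and comp21880_c0 made up 28.6% and 5.47%, so fruit replicates differed in their leading copy too. The largest share outside the members was in leaf replicate 2, where comp22702_c0, described as 1,8-cineole synthase, had 98.6 TPM, against 0.12 TPM or less in each of the other 7 libraries.

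**Figure D3:**
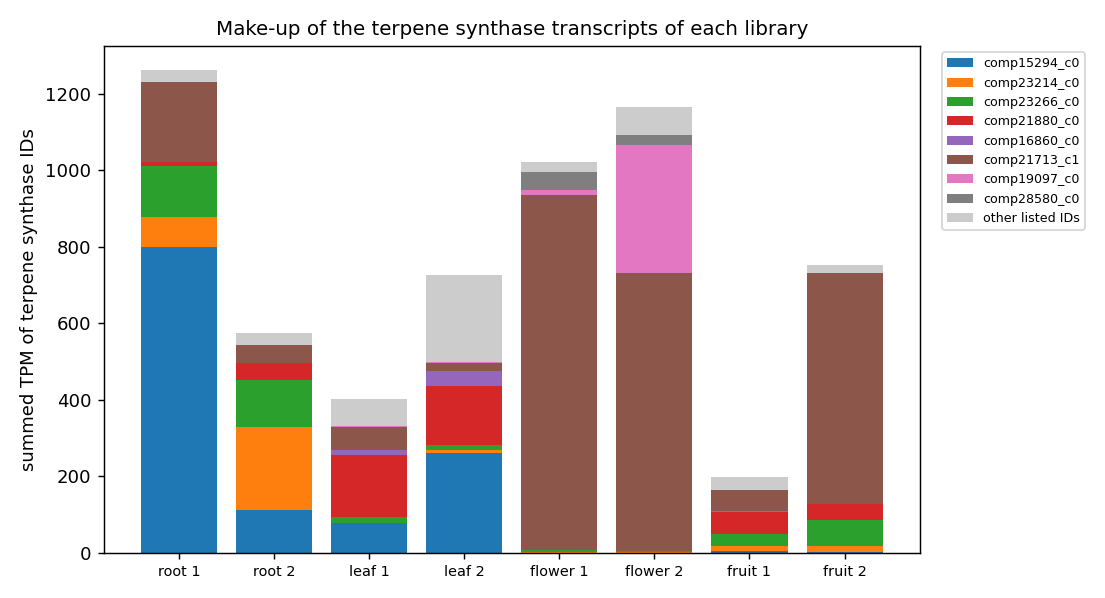
Summed TPM of the 25 terpene synthase IDs in each library, stacked by member with the other 17 IDs in pale grey, with root, leaf, flower and fruit from left to right. The height runs from 199 TPM in fruit replicate 1 to 1262 TPM in root replicate 1, and in root, leaf and fruit the leading copy differs between replicates, while in flower comp21713_c1 leads both replicates in TPM but only replicate 1 in CPM.

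Likeness between members is given as a description, since they were chosen for the organ each was highest in, and nothing is read from it. Likeness was measured as profile overlap, the sum over the 8 libraries of the smaller of the shares that each gene of a pair has of its own summed TPM, so that 100% would mean the same profile. Among members the highest overlaps were 66.1% between comp23214_c0 and comp23266_c0, 66.0% between comp16860_c0 and comp21880_c0, and 63.9% between comp21713_c1 and comp28580_c0. The lowest was 0.467%, between comp16860_c0 and comp28580_c0. Closer matches lay outside the members: comp19097_c0 overlapped 97.0% with comp19330_c0, described as myrcene/ocimene synthase, and comp16860_c0 overlapped 95.3% with comp10792_c0, a 1079-base ID with the same symbol. Whether comp10792_c0 and comp16860_c0 are pieces of 1 gene was not tested, because their sequences were not used here.

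**Figure D4:**
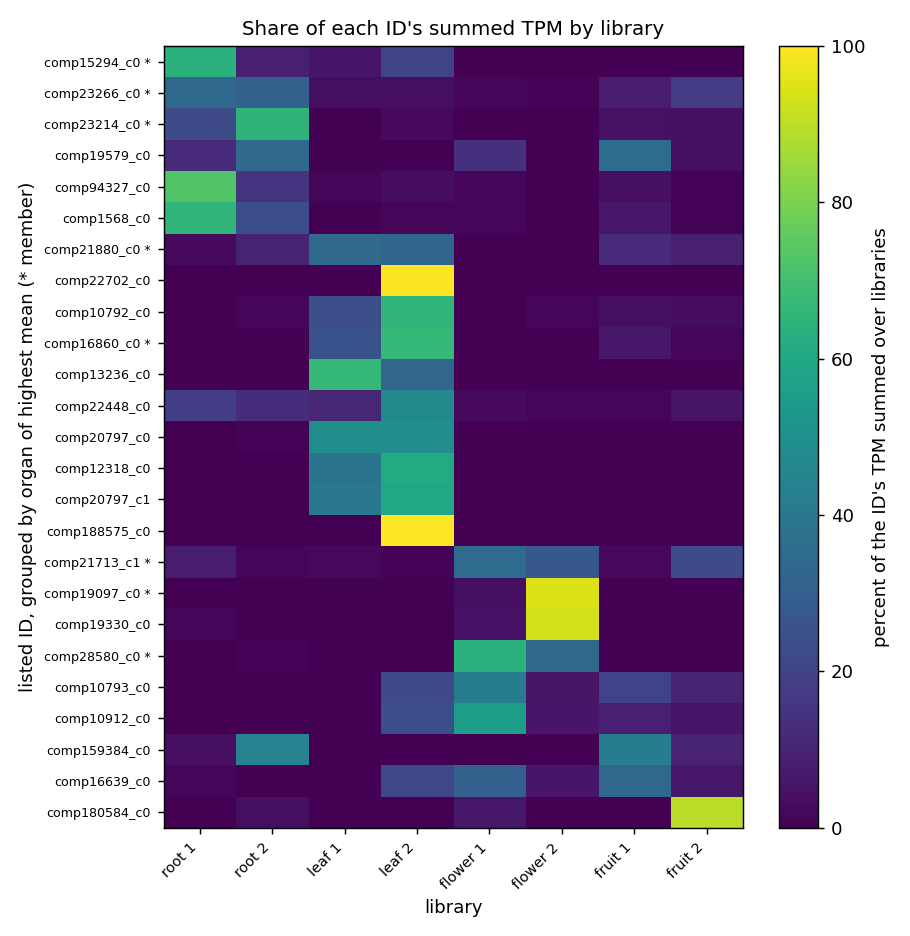
Share in percent of each ID's summed TPM found in each library (columns, with root, leaf, flower and fruit from left to right) for the 25 terpene synthase IDs (rows, grouped by organ of highest mean, members marked with an asterisk). Rows such as comp22702_c0, comp19097_c0 and comp19330_c0 are carried by 1 library, and no member is highest in fruit.

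The best matches among 13972 annotated IDs with a mean of at least 1 TPM were also taken, over the same 8 libraries. For comp15294_c0 they were the cytochrome P450 CYP71A1 (comp11656_c0, 96.1%) and the cellulose synthase-like CSLG2 (comp23182_c0, 92.8%). CYP71A1 had 916 and 109.6 TPM in root and 130.2 and 309 TPM in leaf, so it shared the high root replicate 1 and the high leaf replicate 2. For comp23214_c0 they were the cytochrome P450 CYP71D10 (comp67367_c0, 97.0%) and the O-methyltransferase ROMT (comp11978_c0, 95.5%), and for comp23266_c0 the SKU5-like SKS1 (comp3019_c0, 95.5%) and the phospholipid-translocating ATPase ALA8 (comp8111_c0, 94.6%). For comp21880_c0 they were PCMP-H51 (comp2819_c1, 93.7%) and the ion channel CNGC8 (comp102558_c0, 91.9%). For comp16860_c0 they were PCMP-H24 (comp3424_c0, 96.3%) and the photosystem II protein PPL2 (comp17399_c0, 95.6%). For comp28580_c0 they were the ammonium transporter AMT3-3 (comp161351_c0) and At1g64760 (comp173199_c0), each at 98.6%. For comp19097_c0 the best match was comp24454_c0, described as ribosomal protein S29e (97.2%), with comp19330_c0 next. For comp21713_c1 they were comp19003_c0, described as eIF-5A (89.0%), and the snakin SN1 (comp5815_c0, 88.1%).

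Overlap over 8 libraries rests on few points, and 1 high library can carry it. When CPM scaled by TMM factors replaced TPM, both named matches stayed for comp19097_c0, comp15294_c0, comp28580_c0 and comp16860_c0, 1 of 2 stayed for comp23266_c0 and comp23214_c0, and 0 stayed for comp21880_c0 and comp21713_c1. Both comp21880_c0 and comp21713_c1 have several isoforms.

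The other terpene synthase IDs give a setting for the members. The list held 25 IDs, of which 17 were not members. Of these 17, 10 are shorter than 800 bases and 15 were tested. Their highest organ was root for 3, leaf for 8, flower for 3 and fruit for 3. At the margin of the members' level, comp22702_c0 and comp19330_c0 averaged 12.4 and 9.35 TPM over all libraries and are not members, and comp28580_c0 and comp16860_c0 averaged 9.10 and 7.23 TPM and are.

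The 6 organ comparisons were fitted on the counts of all 8 libraries with edgeR's quasi-likelihood test, and an ID passed at a Benjamini-Hochberg adjusted p under 0.05 over all tested IDs and at least a 2-fold change. They share libraries and are not independent of each other. In root against leaf, 2 of 23 tested list IDs were higher in root and 6 were lower, and of all tested IDs 4.45% were higher and 7.92% lower (12.4% in all). In root against flower 4 were higher in root and 3 lower, and of all tested IDs 9.39% and 11.2% (20.6% in all). In root against fruit 1 was higher in root and 1 lower, and of all tested IDs 0.816% and 1.24% (2.06% in all). In leaf against flower 6 were higher in leaf and 3 lower, and of all tested IDs 10.0% and 9.32% (19.3% in all). In leaf against fruit 4 were higher in leaf and 1 lower, and of all tested IDs 6.05% and 3.59% (9.64% in all). In flower against fruit 3 were higher in flower and 4 lower, and of all tested IDs 8.06% and 6.65% (14.7% in all).

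Much of that count comes from IDs chosen for their organ pattern. The members account for 2 higher and 3 lower in root against leaf, 4 and 2 in root against flower, 1 and 1 in root against fruit, 3 and 2 in leaf against flower, 1 and 1 in leaf against fruit, and 2 and 4 in flower against fruit, and nothing is read from them. Among the 15 tested IDs that are not members, 3 were lower in root than in leaf and 0 were higher, where an unadjusted edgeR p under 0.05 gave 6 and 5, DESeq2 gave 5 and 3, and limma on log2(TPM + 1) gave 5 and 1. Of the same 15, 1 was lower in root than in flower and 0 higher, where the unadjusted p gave 3 and 3, DESeq2 4 and 2, and limma 0 and 2. Between root and fruit 0 of the 15 passed with edgeR, where the unadjusted p gave 2 and DESeq2 gave 1, all higher in root, and limma gave 0. Of all 27939 tested IDs, the unadjusted p gave 7553 in root against leaf, 10305 in root against flower and 5073 in root against fruit. In the same order DESeq2 gave 6006, 8673 and 3255, limma 4486, 8276 and 1584, and edgeR's adjusted p 3455, 5744 and 575. Leaf had 3 higher and 1 lower against flower, and 3 higher against fruit, and flower had 1 higher against fruit. Over these 15 the median log2 fold change was -6.13 in root against leaf, 0 in root against flower, -0.31 in root against fruit, 0.79 in leaf against flower, 0.79 in leaf against fruit and -0.50 in flower against fruit. The medians over all tested IDs, in the same order, were 0.09, 0.17, 0.01, 0.13, 0.01 and -0.16. With IDs at 0 in one organ set to their bound, and IDs at 0 in both left out, the medians were -3.16, -0.60, -0.07, 1.99, 0.79 and 0.32. The bound puts 3 counts in the empty organ, so an ID with fewer counts in the other organ gets a reversed sign. This was so for comp12318_c0, with 1 count in fruit and 0 in root and in flower. The sign in flower against fruit depends on how these IDs are treated, and nothing is read from it.

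Many of these counts fall when single libraries are left out, and so do many of those of all tested IDs. In each fit with a fall named below, except root against fruit without root replicate 2, fewer of all tested IDs passed too. The list count rose in leaf against flower without any 1 root or fruit library, where fewer of all tested IDs passed. Whether the list changed by more than all tested IDs was not tested. Each organ has 2 libraries, and when 1 is left out the lone library is assumed to vary like the other organs. In root against leaf 8 passing list IDs became 2 without root replicate 1, 4 without root replicate 2, 3 without leaf replicate 1 and 2 without leaf replicate 2. In leaf against fruit 5 became 0 without leaf replicate 1, leaf replicate 2 or fruit replicate 2 and 1 without fruit replicate 1. In leaf against flower 9 became 4 without leaf replicate 1, 2 without leaf replicate 2, 4 without flower replicate 1 and 3 without flower replicate 2. In root against flower 7 became 3 without flower replicate 1 and 4 without flower replicate 2. In flower against fruit 7 became 3 without flower replicate 2 and 2 without flower replicate 1, fruit replicate 1 or fruit replicate 2. In root against fruit 2 became 1 without root replicate 2 and 0 without any other library.

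The 4 IDs outside the members that passed a comparison were highest in leaf or flower. Folds given as "at least" are on library totals without TMM scaling, which would lower those in leaf against flower. Each SE of a log2 fold change, here and below, was derived from the F statistic of the test and is not one that edgeR gives. The ID comp13236_c0 (TPS12) had no count in either root library, 25.1 and 12.4 TPM in leaf, 0 and 0.14 TPM in flower, and 0.08 and 0 TPM in fruit. Its level was at least 1048-fold lower in root than in leaf (adjusted p = 0.0190, edgeR), and its log2 fold change was 7.96 ± 1.76 (SE, edgeR adjusted p = 0.0302) in leaf against flower and 9.09 ± 1.81 (SE, edgeR adjusted p = 0.0350) in leaf against fruit. The ID comp20797_c0, also described as 1,8-cineole synthase, had 0.02 and 0.25 TPM in root, against 12.8 and 12.6 TPM in leaf, a log2 fold change of -7.06 ± 1.29 (SE, edgeR adjusted p = 0.0220). It had no count in flower, where leaf was at least 363-fold higher (edgeR adjusted p = 0.0110), and 0.03 and 0 TPM in fruit, with a log2 fold change of 9.62 ± 1.49 (SE, edgeR adjusted p = 0.0177) in leaf against fruit. The short ID comp12318_c0, which carries a chloroplast myrcene synthase term, had no count in either root library, 7.48 and 11.9 TPM in leaf, no count in either flower library, and 0.06 and 0 TPM in fruit. It was at least 86.2-fold lower in root than in leaf (edgeR adjusted p = 0.0195) and at least 70.9-fold higher in leaf than in flower (edgeR adjusted p = 0.0201), and its log2 fold change was 8.07 ± 1.35 (SE, edgeR adjusted p = 0.0310) in leaf against fruit. All 3 fell short of the threshold when either leaf library was left out, and comp13236_c0 and comp12318_c0 also when either library of the organ set against leaf was left out. For comp20797_c0 the other omissions that lost a call were root replicate 1 against root, flower replicate 1 against flower, and either fruit library against fruit. With DESeq2 the call of comp13236_c0 in leaf against flower was lost.

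The flower ID was comp19330_c0, described as myrcene/ocimene synthase, the name of scent monoterpenes, with the same grapevine symbol as 5 members. It had 1.22 and 0.16 TPM in root, 0.01 and 0 TPM in leaf, 3.60 and 69.8 TPM in flower, and 0 and 0.05 TPM in fruit. Both flower libraries were above all others, and flower replicate 2 was the higher, as in comp19097_c0. Its log2 fold change was -12.76 ± 2.56 (SE, edgeR adjusted p = 0.0176) in leaf against flower, 11.12 ± 2.31 (SE, edgeR adjusted p = 0.0259) in flower against fruit, and -6.35 ± 1.80 (SE, edgeR adjusted p = 0.0491) in root against flower. The root call was lost in each of the 8 fits without 1 library, with no filter on low counts and with limma on log2(TPM + 1). The leaf call was lost without leaf replicate 1, leaf replicate 2 or flower replicate 2, and the fruit call was lost without any 1 leaf, flower or fruit library.

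Terpene synthases need prenyl diphosphates, and 17 IDs for the MEP pathway and prenyl diphosphate synthases were tested in the 3 root comparisons. In root against leaf 1 was lower in root and 0 were higher (4 and 0 at an unadjusted edgeR p under 0.05, 3 and 0 with DESeq2, 2 and 0 with limma on log2(TPM + 1)), in root against flower 1 was higher and 1 lower (5 and 1 at an unadjusted p under 0.05, 6 and 1 with DESeq2, 7 and 1 with limma), and in root against fruit 1 was higher and 0 lower (8 and 2 at an unadjusted p under 0.05, 6 and 2 with DESeq2, 3 and 1 with limma). Of all tested IDs, 4.45% were higher and 7.92% lower in root against leaf, 9.39% and 11.2% in root against flower, and 0.816% and 1.24% in root against fruit. These shares are those of edgeR's adjusted p, and the other settings passed more of all tested IDs, as given above for the same 3 comparisons. The list's median log2 fold change was 0.18 against leaf, 1.07 against flower and 1.74 against fruit, where all tested IDs had medians of 0.09, 0.17 and 0.01. The ID with the symbol GGR (comp20102_c0), in Arabidopsis the name of a small subunit of prenyl diphosphate synthase, had 2.40 and 7.74 TPM in root, against 60.2 and 95.6 TPM in leaf and 47.1 and 29.5 TPM in flower. Its log2 fold change was -4.37 ± 0.59 (SE, edgeR adjusted p = 0.00544) in root against leaf and -3.91 ± 0.58 (SE, edgeR adjusted p = 0.00817) in root against flower, and both calls were kept in 8 of 8 fits without 1 library.

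The IDs higher in root were less firm. ISPF (comp15871_c0), a MEP pathway enzyme, had 492 and 132 TPM in root, against 26.0 and 20.2 TPM in flower (log2 fold change 2.99 ± 0.74 (SE), edgeR adjusted p = 0.0337). The 1-deoxy-D-xylulose-5-phosphate synthase (DXS) comp20919_c0, the entry enzyme of that pathway, had 142 and 18.5 TPM in root, against 0.26 and 0.22 TPM in fruit (log2 fold change 8.34 ± 1.41 (SE), edgeR adjusted p = 0.0418). Of the 8 fits without 1 library, each of these calls was kept only in the one without root replicate 2. The DXS comp20919_c0 also passed as higher in leaf and in flower than in fruit. Its root and leaf libraries overlapped, so its call against fruit is not particular to root. The counts of supply IDs passing in root against flower and in root against fruit changed with the library left out. Each was highest without root replicate 2, where fewer of all tested IDs passed against flower and more against fruit.

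Most supply genes, like comp15294_c0, were higher in root replicate 1 than in root replicate 2. Their summed level was 3354 TPM in root replicate 1 and 972 TPM in root replicate 2, and 10 of the 17 were at least 2-fold higher in replicate 1, against 11.2% of all tested IDs. The reverse held for 4 of the 17, GGR among them, against 31.4% of all tested IDs. Root was the highest organ of 7 supply IDs, and in 0 of these did both root libraries lie above all others. Of the supply IDs the closest in profile to comp15294_c0 were the DXS comp20919_c0 (91.4% overlap), the short DXS ID comp14158_c0 (85.9%) and ISPG (comp16115_c0, 73.0%). The DXS comp20919_c0 had 23.2 and 44.9 TPM in leaf and 9.58 and 3.07 TPM in flower. As in comp15294_c0, root replicate 1 was the highest library, followed by leaf replicate 2. Among the members comp23214_c0, with 76.9 TPM in root replicate 1 and 218 TPM in root replicate 2, did not share this order.

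**Figure D5:**
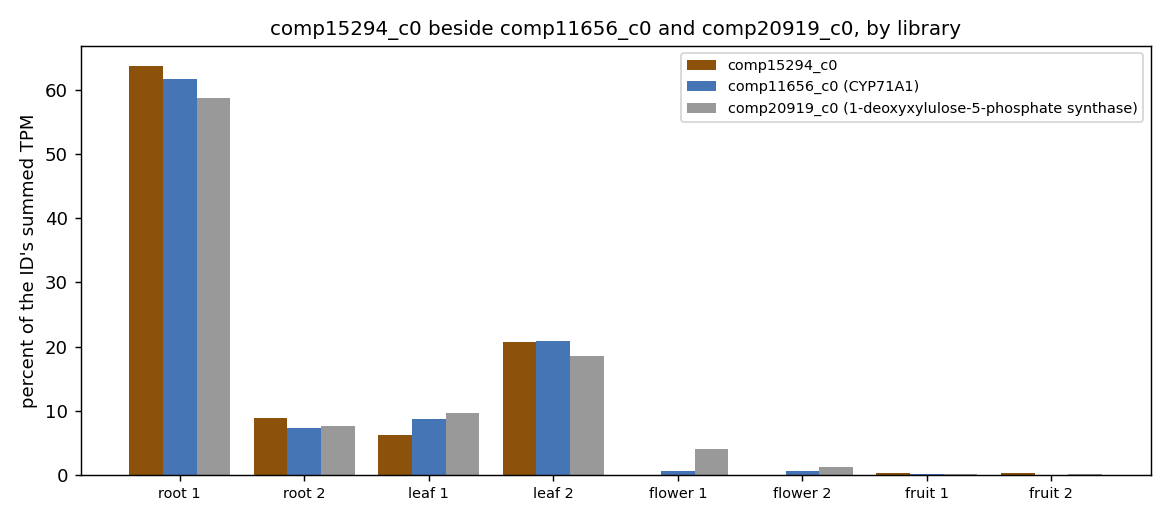
Share of each gene's own summed TPM found in each library, in percent, as bars for comp15294_c0, the cytochrome P450 CYP71A1 (comp11656_c0) and the DXS comp20919_c0, with root, leaf, flower and fruit from left to right. Root replicate 1 holds the largest share of comp15294_c0 and of the 2 genes set beside it, and leaf replicate 2 the next.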

How the data were processed

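RNA-seq libraries from 4 organs, 2 per organ, were analysed from 1 table. Poly(A) RNA was read in pairs on an Illumina sequencer, per the labels' protocols. The authors deposited, per the file headers, an expected (estimated) count, a TPM and an RPKM for each assembled gene in each library, and gene lengths. The deposited estimated counts are not normalised, and at least 97.98% of each library's values lie within 0.005 of a whole number. No total differs between libraries in the TPM as deposited. RPKM, also deposited, did not enter the results. The sources used here give neither assembler nor aligner, counting tool or filters. No genome or sequence was used.

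Gene names, descriptions and Gene Ontology terms are the table's own. The members and lists were chosen with earlier results of these data known. Levels are TPM, mean ± SD over 2 libraries. Counts were rounded and fitted with edgeR 4.0.16 in R 4.3.3 (TMM scaling, filterByExpr, quasi-likelihood F test, organ as the only term, all 8 libraries). Of 30177 IDs, 27939 were tested and 2238 removed. The common biological coefficient of variation was 0.667 with 4 residual degrees of freedom, so only large differences pass. An ID at 0 in an organ gets a bound from 3 counts over that organ's libraries, in place of a fitted fold change. The bound uses library totals without TMM scaling. The SE of a fitted log2 fold change is its absolute value divided by the square root of the F statistic. Scripts were tested on simulated counts. The text names all members, the other listed terpene synthases that pass a comparison (up to 6 by mean TPM), up to 2 supply IDs per direction and root comparison, and per member the 2 IDs with the highest profile overlap. comp22702_c0, comp10792_c0, comp14158_c0 and ISPG were named after their values were seen.

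Alternatives were DESeq2 1.42.0, median-ratio scaling, no filter on low counts, limma 3.58.1 on log2(TPM + 1), leaving out the TAR1-A IDs, the replicate number as a block, and leaving out each library.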

Additional observations from a re-analysis of the deposited data

How the results depend on the processing

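With DESeq2 the count of listed terpene synthases that passed was 13 in root against leaf (8 with edgeR), 13 in root against flower (7), 4 in root against fruit (2), 14 in leaf against flower (9) and 11 in leaf against fruit (5). In root against fruit it was 0 with no filter on low counts, 1 with limma on log2(TPM + 1) and 1 with the replicate block. Supply IDs that passed numbered 3 with DESeq2, 2 with limma and 2 with the replicate block in root against leaf (1 with edgeR), 7 with DESeq2 and 8 with limma in root against flower (2), and 8 with DESeq2, 2 with median-ratio scaling, 4 with limma and 0 with the replicate block in root against fruit (1). Leaving out each library gave 2 to 8 terpene synthases in root against leaf, 3 to 6 in root against flower, 0 to 1 in root against fruit, 2 to 11 in leaf against flower, 0 to 5 in leaf against fruit and 2 to 8 in flower against fruit. It gave 1 to 2, 1 to 6 and 0 to 7 supply IDs in root against leaf, flower and fruit. Over all tested IDs DESeq2 also passed more. It gave 6006 in root against leaf (3455 with edgeR), 8673 in root against flower (5744) and 3255 in root against fruit (575). It gave 8182 in leaf against flower (5398) and 5625 in leaf against fruit (2694). Leaving out a library changed the counts over all tested IDs too. The cause of these changes was not tested.

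The replicate numbers were not treated as pairs: deviations from the organ means correlated at 0.44, 0.38 and 0.49 among root, leaf and flower, but at -0.16, 0.10 and -0.04 between fruit and root, leaf and flower. With the replicate block the calls of comp19330_c0 in root against flower (adjusted p = 0.129), comp12318_c0 in leaf against fruit (0.0533) and the DXS comp20919_c0 in root against fruit (0.0554) were lost, and the other calls given for named IDs in the comparisons were kept. Limma on log2(TPM + 1) shifted the median log2 difference of all tested IDs to 0.35, 0.79, 0.16, 0.45 and -0.63 in root against leaf, flower and fruit, leaf against flower and flower against fruit, from 0.09, 0.17, 0.01, 0.13 and -0.16 with edgeR. The share of passing IDs that were higher became 50.3%, 76.4%, 55.4%, 68.4% and 32.8%, where edgeR gave 35.9%, 45.7%, 39.7%, 51.8% and 54.8%. In leaf against fruit the median was -0.09 with limma and 0.01 with edgeR, and the share higher was 57.0% and 62.8%. Of 88 organ shares of the members recomputed in other units or without a library, 22 moved by more than the spread between replicates, and 1, that of comp15294_c0 without root replicate 1, gave another highest organ. The number of members whose highest organ stood apart stayed between 7 and 8. The number of libraries, 2 an organ, limits the precision.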
